A study of Mus musculus with 12 samples.

Results

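The kallikrein-related proteases of the epidermis and 2 of its protease inhibitors were examined in healing mouse skin wounds. The 10 genes were taken by symbol from the deposited expression tables, which list 55487 genes. They are the kallikreins Klk5, Klk6, Klk7, Klk8, Klk10, Klk11, Klk13 and Klk14 and the inhibitors Spink5 and Cst6, and all 10 were found once and passed the filter on low values in every comparison. Male C57BL/6JNarl mice of 6 weeks received 2 punch wounds on the back, and 200 µL of 25% Pluronic F127 gel in saline was applied to the wounds once daily. The gel was given alone in the sham group (P-F127) and carried 10 µM capsaicin (CAP, the pungent compound of chili peppers and an agonist of the TRPV1 channel) in the CAP-treated wounds. RNA was sequenced at Day 3 and Day 6, with 3 libraries in each of the 4 groups and 12 in all, so every group had a wound and the gel, and unwounded skin was not analysed here. The tissue was the wound with the skin around it, and the sources do not say if 2 libraries can come from 1 mouse, so p values measure only the spread between these libraries.

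Skin sheds its outermost cells when serine proteases of the kallikrein family cut the corneodesmosomes, the junctions that hold the dead cells of the cornified layer together. Klk5 is a trypsin-like protease that activates itself and other kallikreins, and Klk7 is chymotrypsin-like and cuts corneodesmosin and desmocollin. LEKTI, the product of Spink5, is a secreted inhibitor of several kallikreins, and its loss causes Netherton syndrome, in which the barrier peels too early. Cystatin M/E, the product of Cst6, restrains cathepsin L and legumain, lysosomal proteases of the cornifying layers. These proteases are secreted by differentiating (suprabasal) keratinocytes, and some of them are also made by keratinocytes at wound edges.

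The 8 kallikreins lie side by side on mouse chromosome 7, all on the forward strand, within 160.764 kb. On GRCm38 their order is Klk14 at chr7:43690418-43695536, Klk13 at chr7:43712567-43727534, Klk11 at chr7:43774604-43779263, Klk10 at chr7:43781035-43785410, Klk8 at chr7:43797577-43803826, Klk7 at chr7:43811294-43816359, Klk6 at chr7:43824499-43832030 and Klk5 at chr7:43841971-43851181. Klk12 and Klk9 lie between them. All 10 are protein-coding genes, and the positions are those in the tables and in GENCODE M21. In the coding sequences of the 8 kallikreins the 28 pairs were 52.7% to 58.4% identical, with a median of 55.7%. At most 0.427% of the 31-base words of any of the 10 genes also occurred in another gene. Transcripts were compared as written, and matches on the opposite strand were not searched. The reverse-strand transcript 2310002F09Rik overlaps Klk10, Klk11 and Klk13 over their full length and Klk8 and Klk14 in part. These overlaps are of whole gene spans with introns, and shared exon bases were not computed. No source used here gives the strand setting of the quantification. Without it, reads from bases that this transcript shares with those genes cannot be told apart.

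Promoters of 3 kallikreins are shown because these genes of 1 cluster had unlike differences from Day 3 to Day 6 in the CAP-treated wounds. The differences were 0.11 for Klk7, 0.19 for Klk8 and -0.78 for Klk13 on the log2 scale, a contrast between genes that was not tested. None of the 3 reached 2-fold with an unadjusted p under 0.05 in limma. Klk6 (-1.23) and Klk10 (-1.18), which did, are not shown. Each line gives the 250 bases before the start site in RefSeq on GRCm38.p6, forward strand, from chr7:43811044-43811293 for Klk7, chr7:43797327-43797576 for Klk8 and chr7:43712317-43712566 for Klk13. Capitals mark GGGCGG, the GC box, on either strand.
Klk7: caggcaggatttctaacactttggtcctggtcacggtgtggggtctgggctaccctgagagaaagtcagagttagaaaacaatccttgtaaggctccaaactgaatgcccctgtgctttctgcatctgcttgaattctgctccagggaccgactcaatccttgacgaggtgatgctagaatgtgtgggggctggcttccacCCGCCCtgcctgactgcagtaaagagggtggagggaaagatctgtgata
Klk8: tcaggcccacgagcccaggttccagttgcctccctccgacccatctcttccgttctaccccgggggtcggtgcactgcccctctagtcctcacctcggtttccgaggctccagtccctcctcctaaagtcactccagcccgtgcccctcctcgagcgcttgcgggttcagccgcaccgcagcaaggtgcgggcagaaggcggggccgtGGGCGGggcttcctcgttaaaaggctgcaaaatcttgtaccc
Klk13: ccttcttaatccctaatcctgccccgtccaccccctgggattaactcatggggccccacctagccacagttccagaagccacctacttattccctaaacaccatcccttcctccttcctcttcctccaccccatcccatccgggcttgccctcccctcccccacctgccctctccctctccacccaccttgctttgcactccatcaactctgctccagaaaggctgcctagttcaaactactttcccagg
The Klk8 window holds 18 CpG dinucleotides and 65.2% G and C, against a median of 52.4% in all 32851 RefSeq promoter windows of this length, and its GC box lies at positions -42 to -37 from the start. Klk7 has 4 CpG and 52.4% G and C, and Klk13 has 2 CpG and 57.6%. RefSeq windows were at hand for all 8 kallikreins, in 10 entries. GGGCGG, searched on both strands, was found in those of Klk6, Klk7 and Klk8, and 32.7% of all windows hold it. It was absent from those of Klk5, Klk10, Klk11, Klk13 and Klk14, so its presence did not separate genes that fell from the others. TGANTCA (the AP-1 motif, in 6.75% of all windows), TATAAA (in 12.4%) and AACNGGTT (the grainyhead motif, in 1.79%) were found in none of the 10 entries. These letters are a description of the windows and were not tested against the expression values.

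Expression is given in TPM, the share of a transcript among all transcripts of the library, scaled by length, so that genes can be compared with each other. In the sham group at Day 3, Klk7 had the highest level with 948 ± 141 TPM (SD, n = 3), followed by Klk6 with 754 ± 142 TPM. Spink5 came next with 493 ± 82.6 TPM, and Klk5 with 313 ± 57.1 TPM. Klk8 (249 ± 47.2 TPM), Klk10 (232 ± 40.5 TPM) and Klk13 (187 ± 22.1 TPM) formed a middle range, Klk11 and Cst6 were at 119.8 ± 15.4 and 95.3 ± 32.0 TPM, and Klk14 was at 2.45 ± 0.151 TPM. Libraries overlapped between these neighbours in the order: Klk7 and Klk6, Klk5 and Klk8, Klk8 and Klk10, Klk10 and Klk13, and Klk11 and Cst6. Klk7 led in all 4 groups. The second place went from Klk6 at Day 3 to Spink5 in the sham group at Day 6, where the libraries of Spink5 and Klk6 overlapped. In the CAP-treated wounds at Day 6 it went to Klk5, and the libraries of Klk5, Spink5 and Klk6 overlapped. Together the 8 kallikreins reached 2805 ± 402 TPM in the sham group and 2939 ± 397 TPM in the CAP-treated wounds at Day 3. At Day 6 the sums were 1484 ± 420 and 2629.8 ± 749 TPM.

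**Figure D1:**
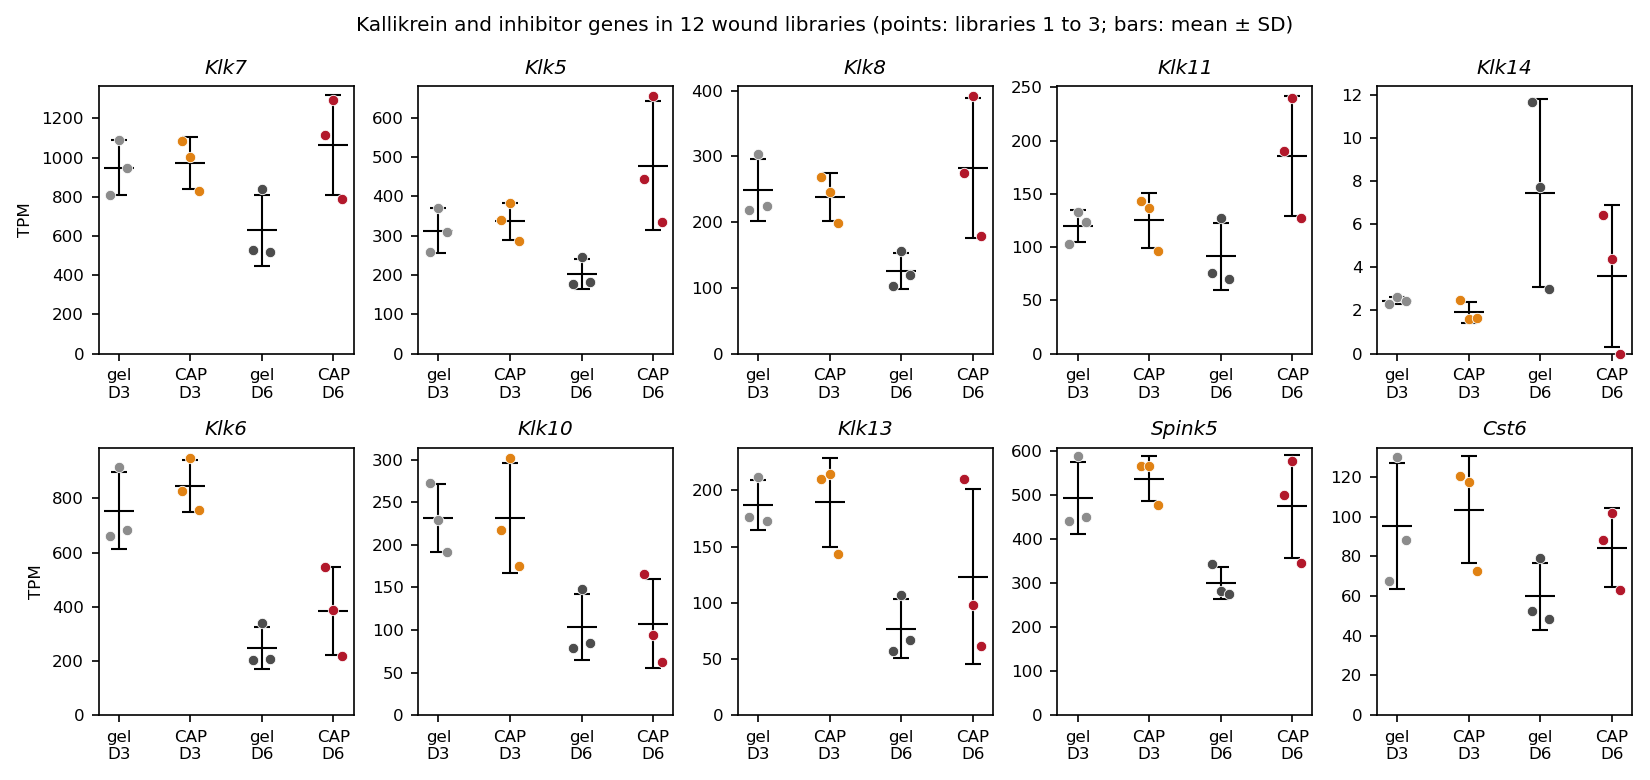
TPM of the 10 genes in each library (points, libraries 1 to 3 from left to right) with the mean and SD of each group (bars), for gel alone and CAP at Day 3 (D3) and Day 6 (D6). Klk5, Klk8 and Spink5 in the CAP-treated wounds at Day 6 lie above all 3 sham libraries of that day, and Klk6 and Klk10 lie lower at Day 6 than at Day 3 in both treatments.

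The libraries had 18533 to 19325 genes at 0.3 TPM or more, 8.27% to 14.1% of the TPM belonged to the top 10 genes, and mitochondrial genes 5.21% to 6.56%. The mean r of a library with the others of its group was 0.961 to 0.973, and with those of the other groups 0.947 to 0.966. CAP library 3 of Day 6 had a higher r with the other groups (0.965) than with its own (0.961), and CAP library 2 of Day 6 had the lowest r with the other groups.

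The first question was whether CAP changed these genes at Day 3, early in the repair of the wound. None of the 10 genes passed the threshold, which asked for 2-fold or more together with an unadjusted p under 0.05 in limma. Of all 18330 genes tested, 0.426% passed it as higher and 1.16% as lower with CAP. Nor did any of the 10 reach an unadjusted p under 0.05, and their groups overlapped in every case, while 2.86% of all genes were higher and 8.75% lower without overlap. The differences in log2(TPM + 0.1) ran from -0.37 for Klk14 to 0.17 for Klk6, with a median of 0.04 beside -0.05 over all genes. For Klk5 the 95% interval of the difference was -0.29 to 0.51, for Klk7 -0.35 to 0.42 and for Spink5 -0.22 to 0.48, which leaves out a 2-fold change in either direction for these genes.

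The same comparison was then made at Day 6. Klk5, Klk8 and Klk11 passed the threshold as higher in CAP-treated than in sham wounds, 3 of the 10 genes. Of the 18323 genes tested, 1.46% passed it as higher and 2.34% as lower, and none had an adjusted p under 0.05 in limma. None of the 10 was lower past the threshold. The median difference of the 10 genes was 0.60 on the log2 scale beside -0.12 over all genes.

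Klk5, the trypsin-like protease that starts the activation of the others, was at 178, 247 and 181 TPM in the 3 sham libraries of Day 6, and the CAP-treated ones held 444, 656 and 334 TPM. All 3 CAP-treated libraries were above all 3 sham libraries. The difference was 1.20 on the log2 scale (SE 0.26, 2.30-fold, adjusted p = 0.205), and at Day 3 the same gene had been at 258, 372 and 310.2 TPM in the sham group and 339.6, 383 and 287 TPM with CAP.

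Klk8, a trypsin-like protease also known as neuropsin, was at 102, 156 and 119 TPM in the sham group and 275, 393 and 179 TPM in the CAP-treated wounds at Day 6. Its groups did not overlap either. The difference was 1.12 on the log2 scale (SE 0.29, 2.17-fold, adjusted p = 0.208). At Day 3 its libraries held 219, 303 and 224 TPM in the sham group and 269, 246 and 198 TPM with CAP.

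Klk11, a trypsin-like family member, was at 75.4, 128 and 70.3 TPM in the sham group and 190.3, 239.8 and 127.35 TPM in the CAP-treated wounds at Day 6. Here sham library 2 and CAP library 3 overlapped narrowly. The difference was 1.03 on the log2 scale (SE 0.30, 2.05-fold, adjusted p = 0.212). Its Day 3 values were 103, 133 and 123 TPM in the sham group and 144, 136 and 95.9 TPM with CAP.

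Klk7, the chymotrypsin-like protease of the cornified layer, was at 531, 839 and 516 TPM in the sham group and 1115, 1293 and 790.2 TPM in the CAP-treated wounds at Day 6. Its groups overlapped through sham library 2 and CAP library 3. The difference of 0.77 on the log2 scale (1.71-fold, adjusted p = 0.223) was short of 2-fold. Earlier, at Day 3, it had been at 809, 1091 and 946 TPM in the sham group and 1086, 1001 and 829 TPM with CAP.

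The inhibitors lie elsewhere in the genome, Spink5 at chr18:43963235-44022501 on the forward strand and Cst6 at chr19:5344705-5349574 on the reverse strand. Their means were higher with CAP, but short of the threshold. Spink5 was at 342, 282 and 276 TPM in the sham group and 499.6, 576 and 346 TPM in the CAP-treated wounds at Day 6. The groups did not overlap, and the difference was 0.63 on the log2 scale (SE 0.20, 1.55-fold, adjusted p = 0.218). Cst6 was at 52.2, 79.1 and 48.2 TPM in the sham group and 88.3, 102 and 63.1 TPM in the CAP-treated wounds, with overlapping groups and a difference of 0.50 (adjusted p = 0.298). Day 3 levels of Spink5 were 442, 588 and 449 TPM in the sham group and 566, 566 and 477 TPM with CAP, and those of Cst6 were 67.5, 130.2 and 88.2 TPM and 120.5, 118 and 72.5 TPM. Counted together, Klk5, Klk8 and Spink5 were higher without overlap, 3 of the 10 genes, beside 8.01% of all genes, and none was lower, beside 18.0%.

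Klk6, Klk10 and Klk13 did not pass the threshold between the treatments at Day 6. Klk6, known as neurosin, was at 203, 338 and 206 TPM in the sham group and 545, 386 and 219 TPM in the CAP-treated wounds (difference 0.57, adjusted p = 0.395). Klk10 was at 78.6, 148 and 84.5 TPM in the sham group and 165, 94.0 and 62.8 TPM with CAP, and its difference was -0.00 with a 95% interval of -0.91 to 0.91, and 0.11 under median-ratio scaling. Klk13, a trypsin-like member, was at 56.6, 107 and 67.1 TPM in the sham group and 210.4, 98.1 and 61.0 TPM with CAP (difference 0.55, adjusted p = 0.515). In all 3 genes CAP library 1 was the highest of the 6 and CAP library 3 was within the range of the sham group or, for Klk10, the lowest of all. Klk14 was at 11.7, 7.72 and 2.98 TPM in the sham group and 6.41 and 4.40 TPM in CAP libraries 1 and 2, and it was listed at 0 in CAP library 3 (adjusted p = 0.439).

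No gene reached an adjusted p under 0.05 in limma between the treatments at Day 6, although 3517 genes had an unadjusted p under 0.05. The call also rested on single libraries. Without CAP library 2 of Day 6 none of the 3 genes reached 2-fold, with log2 differences of 0.95 for Klk5, 0.84 for Klk8 and 0.83 for Klk11, and without sham library 1 of Day 6 the differences of Klk8 and Klk11 were 0.98 and 0.92. Klk11 also fell short of 2-fold without sham library 3 (0.87) and without CAP library 1 (0.99). Without CAP library 3 the differences were 1.43 for Klk5, 1.41 for Klk8 and 1.28 for Klk11 (adjusted p = 0.0316, 0.0318 and 0.0454 in limma, with 2 CAP-treated libraries). CAP library 2 had the highest summed level of suprabasal keratinocyte markers, 95954 TPM, against 52304 and 42084 TPM in the other CAP-treated libraries of Day 6 and 18664 to 23670 TPM in the sham group. It also had the lowest summed levels of endothelial markers (67.0 TPM) and neutrophil markers (183 TPM) of that day. The part of these markers in the results was not tested.

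**Figure D2:**
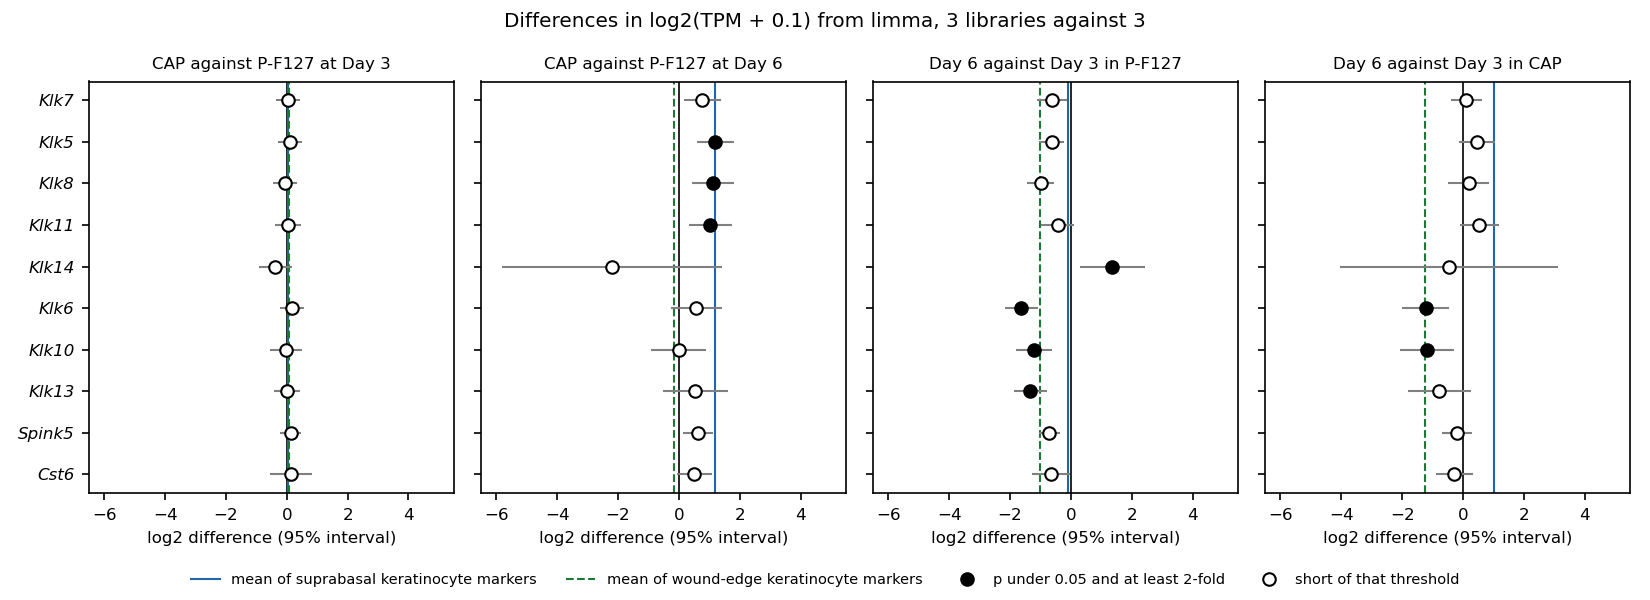
Differences in log2(TPM + 0.1) with 95% intervals from limma for the 10 genes in 4 comparisons, with filled points for genes past the threshold and lines at the mean difference of the suprabasal and wound-edge keratinocyte markers. At Day 6 Klk5, Klk8 and Klk11 lie close to the suprabasal line at 1.20, and in the sham group Klk6, Klk10 and Klk13 lie beyond the wound-edge line at -1.01.

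Whether the response to CAP differed between the days was tested as an interaction over all 12 libraries. Klk5 had a CAP effect that was 1.09 larger on the log2 scale at Day 6 than at Day 3 (SE 0.33, adjusted p = 0.424), and Klk8 one that was 1.18 larger (SE 0.37, adjusted p = 0.424). These 2 of the 10 genes passed the threshold, beside 1.84% of the 17784 genes tested, and none passed as lower, beside 2.25%. Klk11 (0.98, adjusted p = 0.424) and Klk7 (0.73, adjusted p = 0.435) were short of 2-fold, and Spink5 differed by 0.50 (95% interval -0.08 to 1.09). Without CAP library 2 of Day 6 neither gene passed, with 0.84 for Klk5 and 0.90 for Klk8. Klk5 also fell short of 2-fold without sham library 2 of Day 3 (0.96) and without CAP library 3 of Day 3 (0.98). Klk11 passed the threshold in 7 alternatives, the highest being 1.25 without sham library 2 of Day 6.

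The next comparison set Day 6 against Day 3 without CAP. Different mice were killed at each day, so no wound was followed. Here and below, falls and rises over time are differences between wounds of different mice. From Day 3 to Day 6 in the sham group, 3 of the 10 genes fell and 1 rose, while 1.61% of the 18368 genes tested passed the threshold as lower and 2.13% as higher. The median difference was -0.81 on the log2 scale for the 8 kallikreins and -0.68 for the inhibitors, beside 0.00 over all genes. The genes that fell were Klk6, Klk10 and Klk13, and the gene that rose was Klk14.

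Klk6 showed the largest fall of the 10 genes. It was at 663, 917 and 681 TPM at Day 3 and at 203, 338 and 206 TPM at Day 6. No library overlapped, and the difference was -1.62 on the log2 scale (SE 0.23, 3.08-fold lower, adjusted p = 0.0222). Klk13 went from 176, 212 and 172 TPM to the Day 6 values given above, a difference of -1.33 (SE 0.23, adjusted p = 0.0360). Klk10 went from 273, 229.8 and 192 TPM to its Day 6 values with a difference of -1.20 (SE 0.25, adjusted p = 0.0601).

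Klk8 had a difference of -0.99 (1.99-fold lower, adjusted p = 0.0464), just short of 2-fold, and passed that limit without sham library 1 (-1.07) or 3 (-1.06) of Day 3 or library 2 of Day 6 (-1.16). With Klk6 and Klk13 it made 3 of the 10 genes with an adjusted p under 0.05 in limma, beside 1.14% of all genes in each direction. Spink5 (-0.71, adjusted p = 0.0573), Cst6 (-0.65, adjusted p = 0.302), Klk5 (-0.63, adjusted p = 0.133), Klk7 (-0.62, adjusted p = 0.208) and Klk11 (-0.44, adjusted p = 0.416) were short of 2-fold in limma. Klk5, Klk6, Klk8, Klk10, Klk13 and Spink5 were lower at Day 6 without overlap, 6 of the 10 genes, beside 10.6% of all genes.

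Klk14, a trypsin-like protease and a target of LEKTI, ran against the rest at a low level. Its libraries held 2.32, 2.62 and 2.43 TPM at Day 3 and 11.7, 7.72 and 2.98 TPM at Day 6, without overlap, and 10.8% of all genes were higher without overlap. The difference was 1.37 on the log2 scale (SE 0.45, adjusted p = 0.198). It lost the call without sham library 1 (0.94) or 2 (1.24) of Day 6, and in a joint fit of all 12 libraries, where the same difference did not pass. Library 1 of this group also had the highest summed level of hair follicle markers, 95.5 TPM. The order differed in the other 2 libraries, with 15.9 TPM in library 2, which had more Klk14, and 29.2 TPM in library 3. The part of these markers in the result was not tested.

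In the CAP-treated wounds 2 genes fell with time. Klk6 and Klk10 passed the threshold as lower, 2 of the 10 genes, beside 1.52% of the 18202 genes tested, and none passed as higher, beside 1.27%. Klk6 went from 828, 949 and 757 TPM at Day 3 to 545, 386 and 219 TPM at Day 6 (-1.23 on the log2 scale, SE 0.32, adjusted p = 0.304). Klk10 went from 217, 302 and 175 TPM to 165, 94.0 and 62.8 TPM (-1.18, SE 0.37, adjusted p = 0.352). These 2 genes were also lower without overlap, as were 9.63% of all genes, and none was higher, beside 8.05%. Both lost the call without CAP library 3 of Day 6, with -0.87 for Klk6 and -0.86 for Klk10, and Klk10 lost it without CAP library 2 of Day 3 (-0.97).

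Klk13 had a Day 3 level of 209.9, 214 and 143 TPM and a difference of -0.78 (adjusted p = 0.523), which became -1.27 and passed the threshold without CAP library 1 of Day 6. Klk14 was at 2.47, 1.61 and 1.64 TPM at Day 3, and its difference of -0.46 turned to 1.46, past the threshold, without CAP library 3 of Day 6, the library in which it was listed at 0. Klk11 (0.54), Klk5 (0.46), Klk8 (0.19) and Klk7 (0.11) had differences above 0 and Spink5 (-0.21) and Cst6 (-0.29) below 0, and the 95% intervals of all 6 included 0.

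Ratios between the genes were also computed in each library, without a test. Klk6 was at 2.41 ± 0.194 times the level of Klk5 in the sham group and 2.52 ± 0.104 times in the CAP-treated wounds at Day 3. At Day 6 the ratio was 1.21 ± 0.134 in the sham group and 0.823 ± 0.352 with CAP, and no Day 6 library reached the lowest Day 3 ratio of 2.196. Klk5 was at 0.685 ± 0.179 times the level of its inhibitor Spink5 in the sham group and 0.998 ± 0.129 times with CAP at Day 6, beside 0.636 ± 0.0542 and 0.626 ± 0.0435 at Day 3. The lowest CAP-treated ratio of Day 6 was 0.889 and the highest sham ratio 0.876. All 8 kallikreins together were at 5.71 ± 0.186, 5.47 ± 0.250, 5.04 ± 1.75 and 5.51 ± 0.390 times Spink5 in the sham and CAP-treated wounds of Day 3 and of Day 6, in that order, and all groups overlapped in this ratio with at least 1 other. Klk7 made up 33.8% ± 1.71 and 33.1% ± 2.07 of the summed kallikrein TPM at Day 3 and 42.3% ± 0.806 and 41.1% ± 3.40 at Day 6.

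Keratinocytes are the main known source of these genes, and their markers moved in the same libraries. The suprabasal markers (Krt1, Krt10, Krtdap, Sbsn, Lor, Flg2, Dsc1 and Calm4) were 1.20 higher on the log2 scale in the mean of the list in CAP-treated than in sham wounds at Day 6, without overlap. Of these, 5 of the 8 genes passed the threshold as higher, beside 1.46% of all genes. The sums of the suprabasal list ran from 42084 to 95954 TPM with CAP and from 18664 to 23670 TPM in the sham group. The basal markers (Krt5, Krt14, Krt15, Col17a1, Itgb4 and Trp63) were 0.41 higher without overlap, with 1 of 6 past the threshold, Krt15. The wound-edge markers (Krt6a, Krt6b, Krt16, Krt17, Sprr1b and S100a8, the last also made by neutrophils) differed by -0.17 with overlap at Day 6. From Day 3 to Day 6 the wound-edge list differed by -1.01 in the sham group, without overlap, and by -1.26 with CAP, with overlap, while the suprabasal list differed by -0.11 and 1.03. In bulk tissue, fewer cells of a type and less RNA per cell cannot be told apart.

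Each gene was then set against these lists within its own library. Relative to the suprabasal markers, Klk5 differed by 0.01 on the log2 scale between the treatments at Day 6, Klk8 by -0.08 and Klk11 by -0.16 (exact permutation p = 0.9, 0.6 and 0.6). Klk7 (-0.43), Spink5 (-0.56), Klk10 (-1.20), Cst6 (-0.69) and Klk14 (listed at 0 in 1 library) were lower without overlap, 5 of the 10 genes, beside 84.2% of all genes. None was higher, beside 0.0873%. The smallest p that 3 libraries against 3 can give in the exact permutation test is 0.1. Relative to the basal markers Klk5 (0.80) and Klk8 (0.71) were higher without overlap, beside 1.92% of all genes, and none was lower, beside 51.9%. Relative to the wound-edge markers, a reference chosen after seeing the data, 5 of the 10 genes were higher without overlap (Klk5, Klk6, Klk8, Klk11 and Klk13), beside 1.33%, and none was lower, beside 0.409%.

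The relative levels were also compared over time. In the sham group 8 of the 10 genes were lower at Day 6 relative to the suprabasal markers without overlap, beside 2.45% of all genes, with -1.51 for Klk6, -1.22 for Klk13, -1.09 for Klk10, -0.88 for Klk8, -0.60 for Spink5 and -0.52 for Klk5. Klk14 was higher (1.48) without overlap, beside 3.45%. Relative to the basal markers 4 genes were lower without overlap (Klk6, Klk8, Klk13 and Spink5), beside 1.56%, and Klk14 was higher, beside 43.3%. Relative to the wound-edge markers only Klk6 (-0.61) and Klk13 (-0.32) were lower without overlap, beside 0.218%, and Klk7, Klk11 and Klk14 were higher, beside 74.3%. With CAP, 9 of the 10 genes were lower over time relative to the suprabasal markers without overlap, beside 71.9% of all genes, and none higher, beside 0.165%. Relative to the basal markers Klk6, Klk10, Klk13 and Cst6 were lower, beside 4.36%, and Klk11 was higher, beside 4.27%. None was lower relative to the wound-edge markers, beside 0.0549%. There Klk6 differed by 0.03 and Klk10 by 0.08 from the wound-edge list (exact permutation p = 0.9 and 0.7). Relative to that list 5 genes were higher without overlap (Klk5, Klk7, Klk8, Klk11 and Klk13), beside 21.4%.

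**Figure D3:**
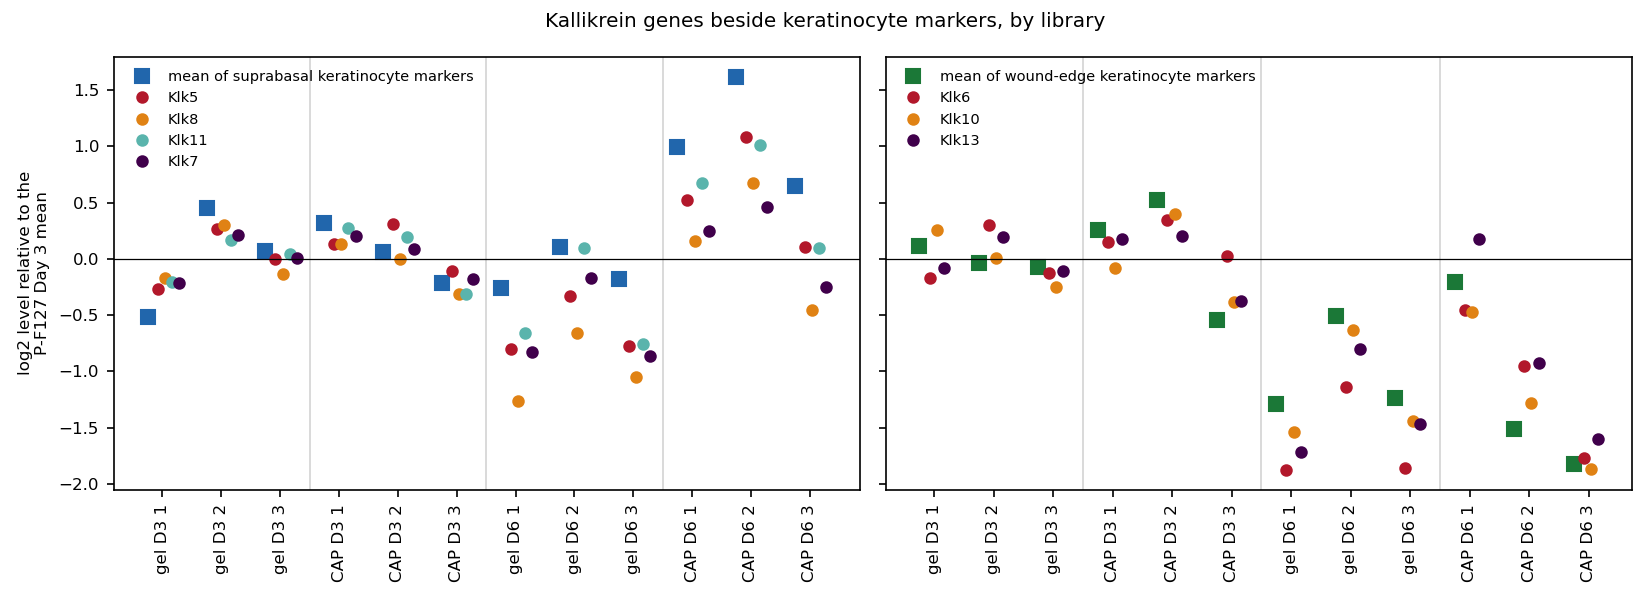
Levels on the log2 scale relative to the mean of the sham group at Day 3, by library, with Klk5, Klk8, Klk11 and Klk7 beside the mean of the suprabasal markers (left) and Klk6, Klk10 and Klk13 beside the mean of the wound-edge markers (right). The suprabasal markers and the first 4 genes are highest in CAP library 2 of Day 6, and the second set lies below 0 at Day 6 with the exception of Klk13 in CAP library 1.

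The kallikreins fell into 2 sets by their values, a grouping made after these were seen. Over the 12 libraries Pearson's r was 0.866 to 0.962 among Klk5, Klk7, Klk8 and Klk11 and 0.926 to 0.953 among Klk6, Klk10 and Klk13, and 0.179 to 0.700 between the sets. With the mean of the wound-edge markers r was 0.971 for Klk10, 0.913 for Klk13 and 0.871 for Klk6, and with the suprabasal markers it was 0.870 for Klk11, 0.848 for Klk5, 0.677 for Klk7 and 0.660 for Klk8. With the basal markers r was 0.790 for Klk7 and 0.780 for Klk8, higher than with the suprabasal markers, and 0.725 for Klk5 and 0.717 for Klk11. Klk14, listed at 0 in 1 library, had an r between -0.15 and 0.174 with the other kallikreins. Its Spearman's rho ran from -0.497 with Klk6 to 0.126 with Klk7, and was -0.378 with Klk10 and -0.266 with Klk13. Spink5 and Cst6 had an r of 0.830 with each other, and 0.807 and 0.850 with the basal markers. These correlations are descriptions over libraries that include the differences between the 4 groups, and no p is given. In the order of position, Klk13 and Klk10 are separated by Klk11, Klk8 and Klk7 are adjacent members, and Klk6 lies between Klk7 and Klk5.

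**Figure D4:**
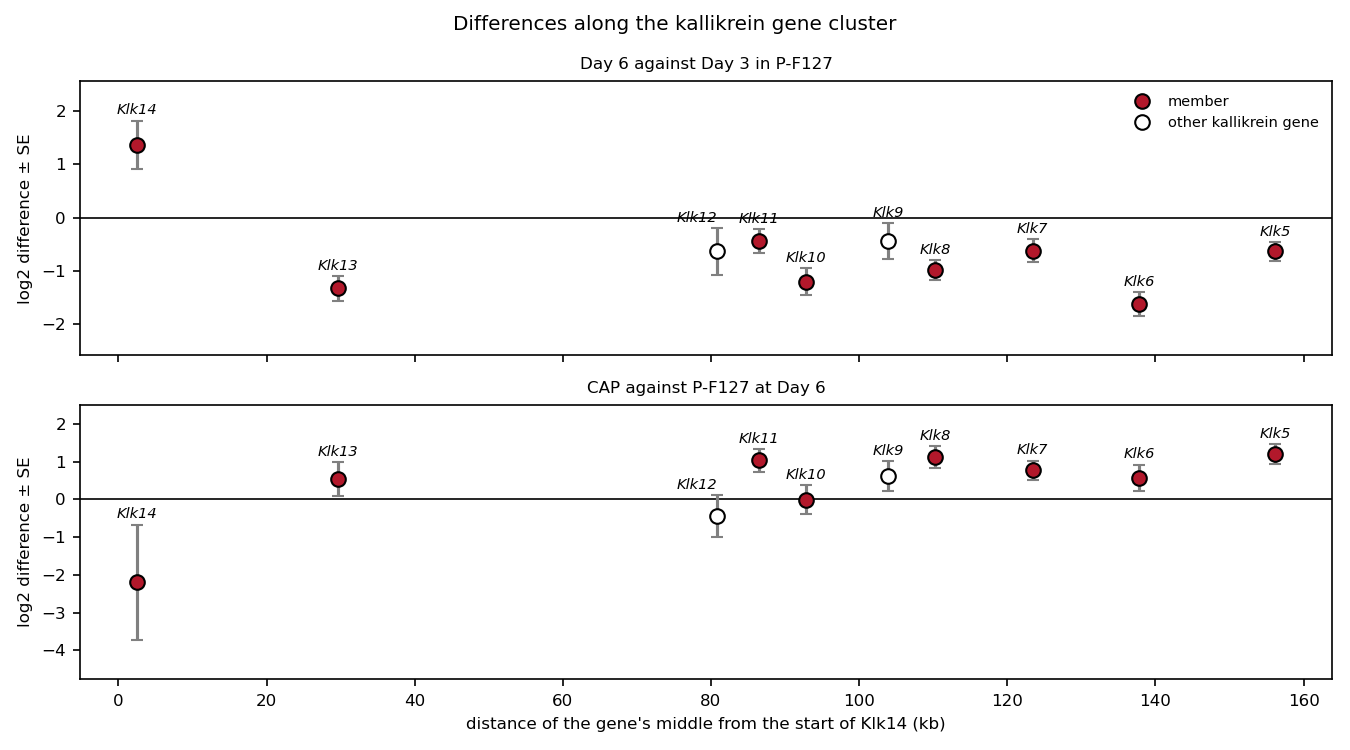
Differences in log2(TPM + 0.1) with SE from limma for the kallikrein genes, placed by the distance of each gene's middle from the start of Klk14 in kb, with members filled and Klk12 and Klk9 open. From Day 3 to Day 6 in the sham group (top) Klk6, at -1.62, lies between Klk7 at -0.62 and Klk5 at -0.63, and between the treatments at Day 6 (bottom) Klk10, at -0.00, lies between Klk11 at 1.03 and Klk9 at 0.62.

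Other kallikrein genes of the region were measured at the same time. Klk9, between Klk10 and Klk8, was at 189.6 ± 109 TPM in the sham group and 272 ± 75.7 TPM in the CAP-treated wounds at Day 6 (difference 0.62, adjusted p = 0.404), and Klk12 stayed between 2.17 and 11.99 TPM in all libraries. Klk4 and Klk1 did not exceed 0.310 and 0.807 TPM, and Klk15 was listed at 0 in all 12 libraries. Klk9 and Klk12 were tested in all comparisons and passed the threshold in none with all libraries, and Klk1 was tested at Day 3 and did not pass. Of this list 1 gene was higher with CAP at Day 6 without sham library 2 of Day 6, 1 was lower over time with CAP without CAP library 1 of Day 6, and 1 was higher over time in the sham group without the filter on low values.

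Membrane-anchored and other serine proteases of the epidermis, which act upstream of or beside the kallikreins, were a list of 12. At Day 6 between the treatments 1 of the 12 was past the threshold, Tmprss11f, which was higher with CAP by just over 2-fold (adjusted p = 0.205). It did not pass without sham library 1 or 3 or CAP library 2 of Day 6, nor with a pseudocount of 1 TPM. The list had 2 genes higher under median-ratio scaling, under quantile normalization or without CAP library 3 of Day 6, and 2 lower without CAP library 1 of Day 6. From Day 3 to Day 6 in the sham group 2 fell, Tmprss11b (-1.84, adjusted p = 0.00985) and Tmprss11g (-1.47, adjusted p = 0.0548), and with CAP 1 fell, Tmprss11b (-2.24, adjusted p = 0.352), a call lost without CAP library 1 of Day 3 or library 2 or 3 of Day 6. The count lower with CAP was 2 in the joint fit of 12 libraries, with the replicate block or without CAP library 3 of Day 3, and 3 without CAP library 1 of Day 6, and 1 gene was higher without CAP library 3 of Day 6. Prss8 (prostasin) and Tmprss4 had CAP effects that were 1.01 and 1.12 larger at Day 6 than at Day 3 (adjusted p = 0.424 for both), and neither passed without sham library 2 or CAP library 3 of Day 3 or CAP library 2 of Day 6, while 1 gene of the list passed without CAP library 2 of Day 3, sham library 3 of Day 6 or CAP library 1 of Day 6, or with a pseudocount of 1 TPM. Without CAP library 1 of Day 6, 1 gene of the list was also lower.

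Of the 4 lysosomal proteases, none passed between 2 groups with all libraries, and Ctsd and Lgmn had CAP effects that were lower at Day 6 than at Day 3 by -1.34 and -1.01 (adjusted p = 0.424 and 0.429). No gene of that list passed without sham library 2 or CAP library 2 or 3 of Day 3, or without sham library 3 or CAP library 1 or 2 of Day 6, and 1 passed without sham library 2 of Day 6, without the filter on low values or under either scaling. Between 2 groups, 1 gene was higher at Day 3 without CAP library 1 of Day 3, and without CAP library 3 of Day 6, 1 was lower at Day 6 and 2 were lower over time with CAP.

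Of 17 other protease inhibitors of skin, 15 were tested at Day 6 and 3 passed the threshold. The higher ones numbered 2, against 1 without CAP library 2 and 4 without sham library 2 of Day 6, and the lower one became 3 without CAP library 1. Serpinb12 was 1.69 higher (adjusted p = 0.205) and Serpina12, the adipokine vaspin and an inhibitor of Klk7, 1.12 higher (adjusted p = 0.209) with CAP, and Slpi, the secretory leukocyte protease inhibitor, differed by -1.49 (adjusted p = 0.206). In the sham group 2 of 15 fell with time, Serpinb6c (-1.21, adjusted p = 0.0115 in limma) and Spink12 (-1.18, adjusted p = 0.140), and 1 of these calls was lost without sham library 2 of Day 3 or of Day 6, with a pseudocount of 1 TPM or in the joint fit. There 1 gene was higher with the replicate block or without sham library 1 of Day 6. In the CAP-treated wounds Serpinb12 rose (2.28, adjusted p = 0.119) and Slpi fell (-1.03, adjusted p = 0.386), 2 of 14. In the interaction 2 of 14 passed, Serpinb12 with 2.14 and Slpi with -1.52 (adjusted p = 0.424 for both). Slpi lost its call over time without CAP library 1 or 2 of Day 3 or CAP library 2 of Day 6, and under median-ratio scaling and quantile normalization. Over time with CAP the list had 2 genes lower with a pseudocount of 1 TPM or in the joint fit, and 3 without CAP library 3 of Day 3 or CAP library 1 of Day 6. The higher count there was 2 under both scalings, without the filter and without CAP library 3 of Day 3 or 1 or 3 of Day 6, and 3 without CAP library 2 of Day 3. In the interaction the higher count was 2 under median-ratio scaling and without CAP library 1 of Day 3, sham library 2 of Day 6 or CAP library 1 of Day 6, 3 without sham library 1 of Day 3 and 4 without CAP library 3 of Day 6, and the lower count was 2 without CAP library 1 of Day 6.

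Among 10 genes of corneodesmosomes and desmosomes, with the receptor PAR2 (F2rl1) and its target Tslp, 2 passed the threshold at Day 6. Dsc1, desmocollin 1, was 1.02 higher (adjusted p = 0.206) and Cdsn, corneodesmosin, 1.02 higher (adjusted p = 0.208) in the CAP-treated wounds, where 1.46% of all genes passed as higher. Dsc1 is also 1 of the 8 suprabasal markers, so its call was counted in both lists. Corneodesmosin is a known substrate of Klk5 and Klk7. Neither gene passed without sham library 1 or 3 or CAP library 2 of Day 6, and 1 gene of the list passed without CAP library 1. With all libraries none of the 10 passed in another comparison. In the interaction 3 were higher without sham library 1 of Day 3 or CAP library 3 of Day 6, and 2 without CAP library 1 of Day 3 or sham library 2 of Day 6. Over time 1 was lower in the sham group under either scaling or without sham library 1 of Day 3 or library 1 or 3 of Day 6, and 1 was lower with CAP with the replicate block or without CAP library 3 of Day 3 or CAP library 1 of Day 6.

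Markers of other cell types were also measured at Day 6. Summed endothelial markers ran from 67.0 to 198 TPM with CAP and from 242 to 331 TPM in the sham group, neutrophil markers from 183 to 1713 TPM and from 1177 to 2159 TPM, and macrophage markers from 1688 to 3255 TPM and from 2858 to 4093 TPM. All 6 endothelial, all 6 macrophage and all 5 tested neutrophil markers had differences below 0. Of the endothelial markers 3 passed the threshold as lower, beside 2.34% of all genes. All 6 skeletal muscle markers were below 0 and 1 passed as lower, Myh4. Of the adipocyte markers 5 of 6 were above 0, with a median difference of 0.83, and 1 passed as higher, Lep. Their sums overlapped, with 274 to 512 TPM with CAP and 288 to 492 TPM in the sham group. Of the hair follicle markers, Krt33a was listed at 0 in 11 libraries and Krt25, Krt27, Krt28 and Krt71 in 6 each. The sums of this list ran from 4.17 to 10.4 TPM with CAP and from 15.9 to 95.5 TPM in the sham group. Their part in the results for the kallikreins was not tested. Keratinocyte markers were abundant in every library, with suprabasal sums of at least 13856 TPM.

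Genes with the pattern most like the mean of the 8 standardised kallikreins were sought among 14004 genes over the 12 libraries. They were Usp4 (r = 0.965), Teddm3 (r = 0.961), Tyro3 (r = 0.961), Ofcc1 (r = 0.960) and Tgm3 (r = 0.952), of which Tgm3 encodes a transglutaminase of the cornified envelope. For Spink5 they were Aldh3b3 (r = 0.934), Ndfip2 (r = 0.929) and Plekhg6 (r = 0.925), and for Cst6 Gipc1 (r = 0.966), Hsd17b7 (r = 0.953) and B4galnt3 (r = 0.947). Ranked by Spearman's rho instead, none of these 11 genes remained in its list.

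The median difference of all genes between the treatments at Day 6, -0.12, became -0.02 with median-ratio scaling, under which Klk5 differed by 1.31, Klk8 by 1.23 and Klk11 by 1.14, and the share of lower calls went from 61.5% to 43.8%, and to 37.5% with quantile normalization.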

How the data were processed

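The authors sequenced RNA of mouse skin wounds (SureSelect XT HS2 mRNA libraries). Their processing notes and methods name bcl2fastq, Trimmomatic 0.36, the build mm10 and StringTie, and no source used here gives the aligner, annotation release or strand setting. The authors deposited 1 table of TPM for each library, with 55487 genes, and 0.0001 stands in place of 0. Each column sums to about 1000003 TPM. TPM keep no read depth, so counting error is unknown and precision rests on 3 libraries per group.

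The 10 genes and all gene lists were chosen with earlier results of these data known. Tests used log2(TPM + 0.1), which understates changes of low genes. Genes whose group means reached 0.3 TPM on both sides (in all 4 groups for the interaction) were fitted with limma 3.58.1 in R 4.3.3, with a trend, on the 6 libraries compared, and adjusted by Benjamini-Hochberg over all genes tested. The threshold, 2-fold with an unadjusted p under 0.05, follows the study. Exact permutation tests were two-sided. The 5 comparisons share libraries: the sham and CAP groups of Day 3 and Day 6 each enter 3 of them. Levels relative to markers are the log2 level minus the mean log2 level of the list.

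All 10 members were named. Of each pathway list at most 4 genes past the threshold, with the smallest p, were named, and of marker lists the sums were given. The marker genes Krt15, Myh4 and Lep were named past the threshold in addition, outside this rule. Genes of similar pattern had a mean of at least 1 TPM, and symbols of predicted genes were left out. Alternatives were a pseudocount of 1 TPM, no filter, a joint fit, a replicate block, median-ratio scaling, quantile normalization, leaving out each library and other marker lists as reference. The fits of 2 groups were tested on simulated data. Python 3.11.15 with pandas 2.3.3 joined the tables, and 55227 gene identifiers were found in GENCODE M21. Promoter sequences are from RefSeq.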

Additional observations from a re-analysis of the deposited data

Results flagged for a closer look

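In 2 genes, Klk5 and Klk8, the difference in CAP effect between the days passed the threshold as higher, beside 1.84% of all genes. No gene tested had an adjusted p under 0.05 in limma. The CAP effect at Day 6 minus that at Day 3 was 1.09 for Klk5 and 1.18 for Klk8 on the log2 scale, with unadjusted limma p values of 0.0077 and 0.00928 and an adjusted p of 0.424 for both. At Day 6 both genes were higher in 3 of 3 CAP-treated libraries than in any sham library, beside 8.01% of all genes. At Day 3 the groups of both genes overlapped. The same libraries entered the interaction, so these values are not separate evidence for it. Neither gene passed without CAP library 2 of Day 6 (0.84 for Klk5 and 0.90 for Klk8). Klk5 also fell short of 2-fold without sham library 2 or CAP library 3 of Day 3. With 3 libraries in each group, single libraries were not tested as standing apart.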

How the results depend on the processing

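Of 650 recomputed log2 differences of the 10 genes, 621 kept their call or stayed short of the threshold, 17 lost the call, 11 gained it and 1 reversed. The reversed one is Klk14 from Day 3 to Day 6 in the CAP-treated wounds (-0.46, and from -1.55 to 1.46 when 1 library was left out, the last without CAP library 3 of Day 6). Changes of sign that stayed short of the threshold in both fits are among the 621. Between the treatments, Klk5 at Day 3 ran from -0.02 to 0.24 over the alternatives, and Klk10 at Day 6 from -0.37 to 0.33. The cause of these changes was not tested. With the pseudocount of 1 TPM or without the filter no member changed its call, and under median-ratio scaling and quantile normalization Klk11 joined Klk5 and Klk8 in the interaction (1.03 and 1.02). The joint fit of 12 libraries left 0 members higher over time in the sham group (Klk14 in the separate fit).

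Leaving out 1 library gave 0 to 3 members higher between the treatments at Day 6, 0 to 1 higher and 3 to 4 lower over time in the sham group, 0 to 1 higher and 0 to 3 lower over time with CAP, and 0 to 3 higher in the interaction. Over all genes, higher and lower calls ran from 55 to 150 and from 149 to 360 at Day 3, from 140 to 458 and from 171 to 1025 at Day 6, from 342 to 540 and from 299 to 344 over time in the sham group, from 198 to 352 and from 149 to 534 over time with CAP, and from 223 to 532 and from 185 to 891 in the interaction. With a pseudocount of 1 TPM the higher and lower calls were 43 and 111 at Day 3, 157 and 228 at Day 6, 234 and 171 over time in the sham group and 144 and 155 with CAP. Without the filter on low values they were 210 and 358 at Day 3, 419 higher at Day 6, 653 and 503 over time in the sham group, 399 and 443 with CAP, and 544 and 663 in the interaction. Quantile normalization gave 406 and 244 at Day 6. The counts in the report's fit were 78 and 212, 268 and 429, 392 and 296, 231 and 276, and 328 and 400, in the order Day 3, Day 6, sham over time, CAP over time and interaction.

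Of members lower without overlap relative to keratinocyte markers, the counts of 5, 8 and 9 with the suprabasal list at Day 6, over time in the sham group and over time with CAP became 0, 4 and 4 with the basal list. With the wound-edge list, a reference chosen after seeing the data, they became 0, 2 and 0.

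The labels number the libraries 1 to 3 in each group, but the numbers share no stated mouse, litter or day, and same-numbered libraries deviated together with r between -0.17 and 0.29. The replicate block left the members past the threshold at 3 at Day 6 and 2 in the interaction and changed no call of the 10 genes, with 265 and 460 calls over all genes at Day 6. Every library deviated most like its own number at Day 6 and in the sham group over time, and not in the other 2 comparisons. Depth is unknown, so the counting error of values near 0, such as those of Klk14, is unknown too.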
